A study of Mus musculus with 12 samples.

Results

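Of the 55085 5mC peaks listed for the E14.5 mouse cortex, 1895 lost 5mC between progenitors and neurons at places where no 5hmC peak was listed. These loci were chosen by 3 conditions: the peak shared no base with any of the 47478 5hmC peaks, its log2 5mC level in PP was 4 or more, and this level was lower in neurons by 1 or more, that is, at least 2-fold. No 5hmC peak was shared by 48358 of the 5mC peaks, and 45767 of these reached the level of 4 in PP, so the loci were 4.14% of those that could have qualified. The levels in PP and neurons therefore selected the loci and are given as a description, whereas the levels in DP, the 5hmC of neighboring peaks, the position, and the expression of the nearest gene were not used. A peak is a region called by the authors, and the absence of a 5hmC peak does not mean that 5hmC was absent.

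PP, DP, and neurons were sorted from the cortex of E14.5 embryos that were double heterozygous for Btg2-RFP and Tubb3-GFP. PP carried neither reporter and are labelled as neuronal stem cells (Btg2-/Tubb3-), DP carried RFP but not GFP and are labelled as neurogenic progenitors (Btg2+/Tubb3-), and neurons were GFP+ irrespective of RFP (Tubb3+). DNA of the 3 cell types was barcoded, pooled, and precipitated with an antibody against 5mC or 5hmC, and the 12 samples are an IP and an input for each mark and cell type. The tables give a single mean log2 level per peak and cell type, made by the authors over biological replicates that neither the labels nor the tables separate. The tables give no read counts and no replicate spread, and no difference below was tested against replicate error. The reporters mark cells by the activity of 2 genes, and any cell of the cortex with neither reporter falls among PP.

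5mC is written by DNA methyltransferases and maintained through DNA replication, and it can be lost passively when maintenance fails in dividing cells or actively when TET enzymes oxidize it to 5hmC and further forms that are then excised. In the developing cortex, 5hmC increases as progenitors become neurons, particularly in enhancers and in the bodies of neuronal genes. Sites that lose 5mC can thus be found together with a 5hmC peak, next to one, or away from any.

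The expression values that came with the peaks were examined against markers of the labelled cell types, as a sum over those markers that were the nearest gene of a 5mC peak. Summed expression of 5 PP markers, including Pax6, Sox2, and Hes1, was 152213, 77374, and 11305 in PP, DP, and neurons. That of 4 DP markers, including Eomes and Btg2, whose reporter defined DP, was 38940, 117623, and 24048, and that of 6 neuronal markers, including Dcx and Tubb3, whose reporter defined neurons, was 9790, 82453, and 357489. Each list was thus highest in the cell type for which it stands. Markers of interneurons, which enter the cortex from the ventral forebrain, summed to 982, 3687, and 10781, those of endothelium to 649, 426, and 153, those of microglia to 422, 305, and 98.2, and those of mural and meningeal cells to 1371, 448, and 91.7. Blood, astrocytes, and the oligodendrocyte lineage were represented by 1, 4, and 6 genes, with sums of 73.9, 1858, and 1639 in PP and of 9.40, 24.1, and 1612 in neurons. Of the peaks able to qualify near these markers, 4 of 26 were such loci for PP, 2 of 13 for DP, and 9 of 31 for neurons, against 4.14% over all genes. It was 1 of 9 for interneurons (Dlx1), 1 of 48 for endothelium (Cdh5), 1 of 14 for the oligodendrocyte lineage (Pdgfra), 1 of 11 for astrocytes (Aldh1l1), 0 of 22 for microglia, 0 of 11 for mural and meningeal cells, and 0 of 1 for blood. Interneuron markers were higher and vascular and microglial markers lower in neurons, and the part of such cells in the 5mC levels was not tested. In sorted bulk samples a change within cells and a change in the mix of cells cannot be told apart.

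Sequence could be shown for the loci that lie at annotated gene starts, where methylation bears most directly on transcription. RefSeq promoter windows of GRCm38.p6 (mm10), each 300 bases long and starting 250 bases before a gene, shared bases with 10 of the 1895 loci (0.528%) and with 253 of the 43872 remaining loci without a 5hmC peak (0.577%). The following 6 pieces are all those that lie wholly upstream, and they give the bases shared by locus and window, read 5′ to 3′ along the strand of the gene, with CG dinucleotides, the sites at which 5mC is mostly found, in capitals. The Rph3a piece covers chr5:121010141-121010257 on the minus strand, from 165 to 49 bases before the start, and the Gm30663 piece covers chr15:7037690-7037801 on the plus strand. The LOC105244150 piece covers chr2:57124755-57124880 on the minus strand, the Il16 piece chr7:83732490-83732648 on the minus strand, the Gpr161 piece chr1:165302373-165302473 on the plus strand, and the Gm16214 piece chr9:42022365-42022450 on the plus strand.
Rph3a: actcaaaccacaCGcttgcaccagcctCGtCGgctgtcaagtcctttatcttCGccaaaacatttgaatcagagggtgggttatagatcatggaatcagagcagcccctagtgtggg
Gm30663: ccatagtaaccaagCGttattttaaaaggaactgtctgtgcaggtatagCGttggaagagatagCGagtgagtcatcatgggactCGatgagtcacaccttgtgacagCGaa
LOC105244150: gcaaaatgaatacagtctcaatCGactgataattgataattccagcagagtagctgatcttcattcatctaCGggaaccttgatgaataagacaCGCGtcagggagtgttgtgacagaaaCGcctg
Il16: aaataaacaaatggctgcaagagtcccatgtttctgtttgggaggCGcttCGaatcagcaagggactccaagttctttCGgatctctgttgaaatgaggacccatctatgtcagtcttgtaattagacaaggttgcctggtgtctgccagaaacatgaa
Gpr161: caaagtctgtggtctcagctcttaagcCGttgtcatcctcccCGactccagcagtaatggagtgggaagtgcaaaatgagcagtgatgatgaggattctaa
Gm16214: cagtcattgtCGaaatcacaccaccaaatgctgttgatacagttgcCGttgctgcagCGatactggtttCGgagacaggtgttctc

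These promoter pieces held 4 CG dinucleotides in Rph3a, 5 in Gm30663, 5 in LOC105244150, 3 in Il16, 2 in Gpr161, and 4 in Gm16214. Over their whole 300 bases, the windows at the 10 loci held a median of 8 (3 to 10), against 9 in the 270 windows at the remaining loci without a 5hmC peak and 7 in all 32817 windows. At Rph3a, which encodes the synaptic vesicle protein rabphilin 3A, the log2 5mC level was 5.63, 5.66, and 2.58 in PP, DP, and neurons, and the expression of the gene was 12.9, 14.6, and 2340. The level was thus as high in DP as in PP and expression was highest in neurons, the cell type in which the loci were chosen to be low in 5mC. The Gm30663 piece lies nearest to Lifr, which encodes the receptor of leukemia inhibitory factor, and its level was 4.81, 3.99, and 3.40 in PP, DP, and neurons, with a Lifr expression of 884, 907, and 2091. The LOC105244150 piece lies nearest to Nr4a2, which encodes an orphan nuclear receptor, and had a level of 4.72, 4.14, and 3.37, whereas Nr4a2 expression was 4266, 2460, and 807 and thus lower in neurons. The level at Il16 was 4.37, 4.80, and 3.27 and that at Gpr161, a ciliary receptor gene, 4.36, 3.33, and 3.27. At Gm16214, a predicted gene, the level was 4.07, 4.05, and 2.61 and expression was 139.5, 133.6, and 55.7. Expression near these starts was higher in neurons for some of these genes and lower for others.

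Short motifs were searched on both strands of the same windows, and none of these motifs contains another. Each count is followed by the share of the 270 windows at the remaining loci without a 5hmC peak and by that of all 32817 windows. The E-box CAGATG of proneural factors was found in 4 of the 10 windows (23.0 and 17.2%), the E-box CAGCTG in 2 (20.4 and 16.3%), and the Myc-type E-box CACGTG in 0 (10.7 and 7.15%). The AP-1 motif TGANTCA was found in 3 (8.15 and 7.81%), the homeobox motif TAATTA in 1 (1.85 and 5.30%), and the Sox motif ACAAAG in 1 (18.1 and 18.7%). The NFI motif TTGGCA was found in 2 (15.2 and 14.1%) and the GC box, spelled GGGCGG, in 2 (17.0 and 35.6%). With 10 windows these counts describe the windows at hand and nothing beyond them.

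5mC at the loci was mostly retained in DP and lower in neurons. The median log2 level was 4.75 in PP (quartiles 4.46 and 5.13), 4.45 in DP (4.05 and 4.88), and 3.39 in neurons (2.95 and 3.81), with a median difference between PP and neurons of 1.29. Since the median over all 55085 peaks was also lower in neurons than in PP, by 0.171, the loci were lower by 1.12 relative to the typical peak. The median difference amounted to 0.346 between PP and DP and to 1.05 between DP and neurons, and the change to DP made up a median of 23.0% of that from PP to neurons. At the 1084 loci with a loss of the same size that did share a 5hmC peak, the median level was 5.04, 4.73, and 3.43 in PP, DP, and neurons, and the share reached in DP was 20.2%. The 43872 remaining loci without a 5hmC peak had 5.12, 5.14, and 4.98. Loci with and without a 5hmC peak thus differed little in the share reached in DP, as shown in the plot of levels by cell type, and since the PP level enters both differences this share is a description only.

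**Figure D1:**
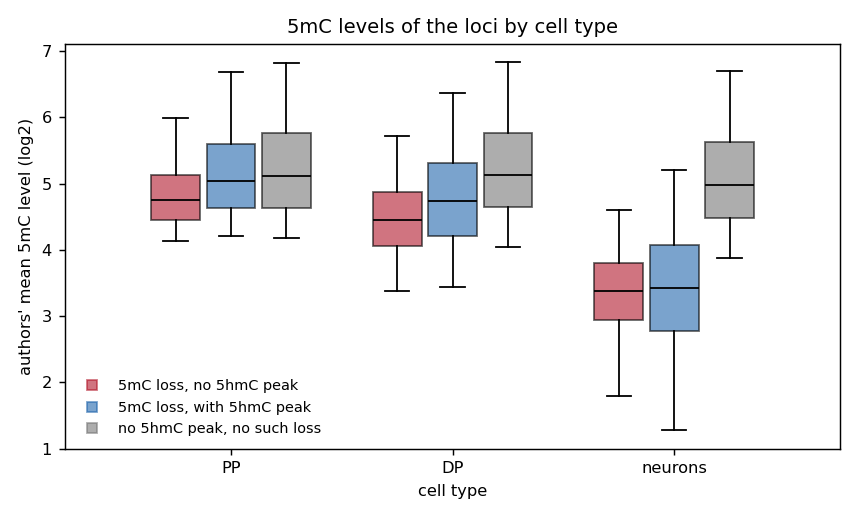
Log2 5mC level (authors' mean) in PP, DP, and neurons for the 1895 loci with 5mC loss and no 5hmC peak (red), the 1084 loci with 5mC loss and a shared 5hmC peak (blue), and the 43872 remaining loci without a 5hmC peak (gray), with medians as lines, quartiles as boxes, and the 5th and 95th percentiles as whiskers. Both loss groups stay close to their PP level in DP and are lower in neurons by construction, with medians of 3.39 and 3.43, whereas the gray boxes stay near 5.

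Step by step, 1043 of the loci (55.0%) were lower by 1 or more from DP to neurons, against 4.99% of all 5mC peaks, and 148 (7.81%) from PP to DP, against 0.973%. Both shares are raised by the choice of the loci, since the steps add up to the loss that the rule asked for. A step of this size was seen in both transitions at 42 loci and in neither at 746 loci (39.4%), at which the loss was spread over both. The level in DP was above that in PP at 318 loci (16.8%) and below that in neurons at 35. The timing therefore varied among the loci, with the later step the more frequent one, as it was over all 5mC peaks.

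The largest early differences were found at a locus inside Abcc12, a transporter gene, with a log2 level of 4.72, 2.52, and 2.43 in PP, DP, and neurons, and at a locus inside Prkce, which encodes protein kinase C epsilon, with 5.08, 2.89, and 3.13. Both were as low in DP as in neurons. Loci inside Megf11, with 4.23, 2.06, and 0.760, and inside Glis3, a zinc finger gene, with 4.76, 2.74, and 1.51, and one downstream of Gm16487, with 4.10, 1.99, and 1.03, were lower in DP and lower again in neurons. At the Prkce, Gm16487, and Glis3 loci the nearest 5hmC peak lay 115, 435, and 472 bases away, and its log2 5hmC level was higher in neurons than in PP by 2.32, 2.04, and 2.21.

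The largest losses were 6.31 at a locus upstream of Mir701 within Ttc28 (chr5:110981104-110981229), with a level of 6.42, 5.71, and 0.113 in PP, DP, and neurons, and 6.20 at a locus 1456 bases upstream of Syt3 (chr7:44382544-44382750), which encodes a synaptotagmin and calcium sensor, with 6.32, 5.70, and 0.113. The value of 0.113 is the lowest that the table gives for neurons, and it is shared by 38 of the 5mC peaks and 22 of the 1895 loci, so that at these loci the size of the loss follows the level in PP. The same lowest level was listed at H2afy (chr13:55990485-55990593), Acsf3 (chr8:122806619-122806764), Mgat5b (chr11:116973721-116973921), Gm16045 within Septin9 (chr11:117317470-117317602), Parvb (chr15:84226931-84227091), and Srebf1 (chr11:60223619-60223739), with levels in PP between 5.05 and 5.36. Of the 10 largest losses, those near Skor1 and within Map2k5 (chr9:63194846-63194973), with 5.93 in PP and 0.522 in neurons, and in Atrnl1 (chr19:57626027-57626159), with 6.35 and 1.45, did not rest on this value. All 10 of these loci had retained a level of 3.92 or more in DP. The largest steps from DP to neurons were found at the Mir701, Syt3, Mgat5b, and Parvb loci and inside Nuak1, which encodes a kinase of axon branching, with a level of 4.88, 4.59, and 0.113 and expression of 1352, 8145, and 32934.

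Expression of the genes nearest to these 10 losses varied. Syt3 was at 85.5, 235, and 2050 in PP, DP, and neurons, and Mgat5b, which encodes a brain glycosyltransferase, at 2150, 12276, and 14157. Atrnl1 was at 2044, 3122, and 10302, and Parvb, a focal adhesion gene, at 71.8, 55.5, and 338. Srebf1, a regulator of lipid synthesis, was instead at 9624, 8391, and 2692, and the histone variant gene H2afy at 13424, 14726, and 10996. Acsf3, a mitochondrial enzyme gene, was at 750, 950, and 793, and values for Skor1, Gm16045, and Mir701 were at most 10.8, 6.10, and 3.90. Syt3, Mgat5b, Atrnl1, and Parvb were thus highest in neurons, Srebf1 and H2afy were lowest there, and the others were hardly expressed or, as Acsf3, highest in DP.

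At the threshold, the loci just inside it lay downstream of 2810410L24Rik, upstream of Dis3, and downstream of Gm15842, with a loss that exceeded 1 by less than 0.001, and their levels in PP were 6.38, 4.92, and 4.38. Those just outside lay near 1600012P17Rik, Spock3, and Gnao1, with a difference that fell short of 1 by less than 0.001, and had 5.24, 4.09, and 4.63 in PP. The boundary between the groups is therefore set by the rule and not by a gap in the values.

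Losses were far more frequent than gains among peaks without a 5hmC peak. By the reverse rule, a level of 4 or more in neurons and a difference of 1 or more in favor of neurons, 115 loci had gained 5mC in comparison with 1895 that had lost it, and over all 5mC peaks a difference of this size in favor of neurons was found at 0.263%. After the median difference over all peaks was subtracted, 1248 losses faced 312 gains. Losses remained more numerous than gains after this change, with 4.00 losses for each gain in place of 16.5.

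A shared 5hmC peak went along with more frequent loss. Among 5mC peaks with a level of 4 or more in PP, the loss of 1 or more was found at 17.0% of the 6375 that shared a 5hmC peak and at 4.14% of the 45767 that did not, against 5.71% for both together and 5.69% for all 5mC peaks. The share was higher with a 5hmC peak on each of the 19 autosomes, where it ran from 13.1 to 20.9% with and from 3.58 to 5.48% without one. Yet since most 5mC peaks shared no 5hmC peak, the loci without one outnumbered those with one, 1895 to 1084.

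The share lost also differed with the level of 5mC in PP. Without a 5hmC peak, 6.36% of the peaks with a level from 4 to 4.5 in PP were lost, 6.08% from 4.5 to 5, and 3.80% from 5 to 5.5. Higher in the range, the share was 1.99% from 5.5 to 6, 1.29% from 6 to 7, and 0.506% at 7 or more, where 8 of 1580 peaks qualified. With a 5hmC peak, the shares were 19.1, 22.6, 19.7, 14.0, 11.8, and 6.27% over the same steps. Loci with moderate 5mC in PP thus made up most of the group, and at each level the share with a 5hmC peak was higher, as seen in the plot of loss by level in PP. Since the level in PP enters both the steps and the loss, the fall with level is a description only. Without read counts or replicates, measurement error at low levels could not be separated from it. On the X chromosome, 7 of 690 peaks qualified, or 1.01%.

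**Figure D2:**
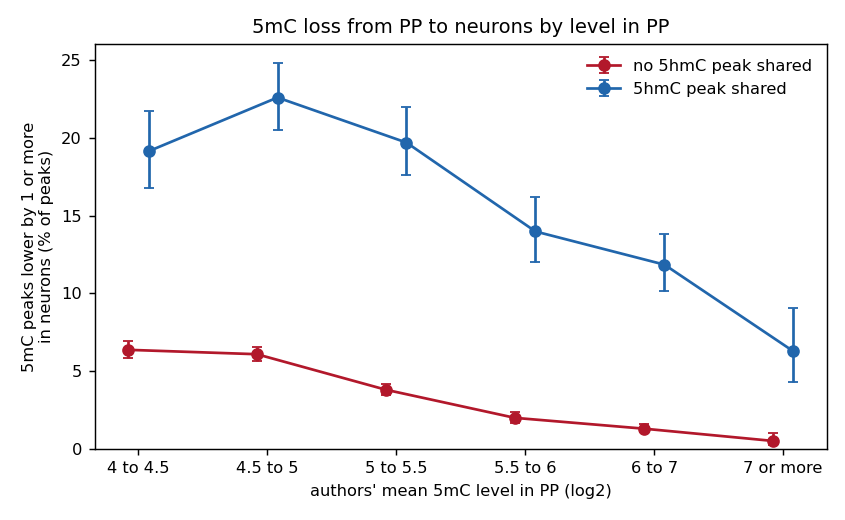
Share of 5mC peaks whose log2 level was lower by 1 or more in neurons than in PP, in steps of the level in PP, for peaks that shared no 5hmC peak (red) and those that shared one (blue), with 95% Wilson intervals that cover the count of peaks only. The red points fall from 6.36% to 0.506% and lie below the blue points, which fall from 19.1% to 6.27% after a maximum of 22.6%. The level in PP enters both axes.

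Although the loci shared no base with a 5hmC peak, such peaks were often close by. A 5hmC peak lay within 250 bases of 66 loci (3.48%), within 1000 bases of 250 (13.2%), and within 5000 bases of 831 (43.9%), against 2.35, 9.64, and 37.1% of the remaining loci without a 5hmC peak. The median gap was 6144 bases at the loci and 7803 bases at the remaining ones. Most of the loci were thus kilobases away from the nearest 5hmC peak.

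5hmC at neighboring peaks within 1000 bases was mostly higher in neurons. At the 250 loci with a 5hmC peak within 1000 bases, the median log2 5hmC level of that peak was 4.49, 4.68, and 4.96 in PP, DP, and neurons, and the median difference between neurons and PP was 0.399, with 86 peaks (34.4%) higher by 1 or more and 3 lower by 1 or more. Over all 47478 5hmC peaks, 13.1% were higher and 1.76% lower by this measure. At the remaining loci without a 5hmC peak, the nearest 5hmC peaks within 1000 bases had medians of 4.71, 4.74, and 4.82, and 15.7% were higher by 1 or more. A nearby 5hmC peak was thus higher in neurons more often at the loci than at the remaining ones, and the difference was not tested.

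By distance, the nearest 5hmC peak was higher by 1 or more at 31 of the 66 loci within 250 bases (47.0%), at 29.9% of those between 250 and 1000 bases, 24.1% between 1000 and 5000 bases, 15.3% between 5000 and 20000 bases, and 16.3% beyond. For the remaining loci these shares were 14.3, 16.2, 15.6, 13.1, and 11.5%. Past 5000 bases the loci were thus closer to the 13.1% of all 5hmC peaks, as drawn in the plot of 5hmC gain by distance. They were still above the remaining loci at the same distance, and this difference was not tested. At the 1084 loci with a 5mC loss of the same size that shared a 5hmC peak, that peak had median levels of 3.85, 4.57, and 5.29 and was higher by 1 or more in 67.3% of cases, so the loci without a shared peak lay between these and the remaining ones.

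**Figure D3:**
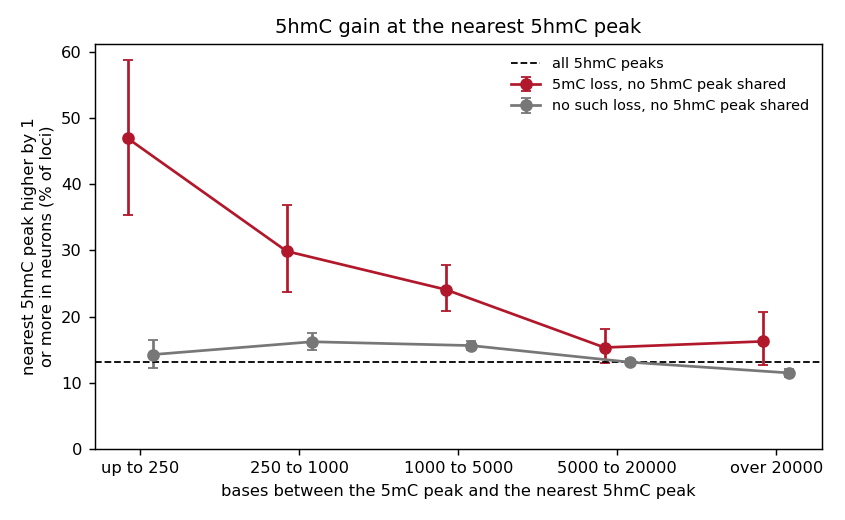
Share of loci whose nearest 5hmC peak had a log2 5hmC level higher by 1 or more in neurons than in PP, by the number of bases between the 5mC peak and the 5hmC peak, for the loci with 5mC loss (red) and the remaining loci without a 5hmC peak (gray), with 95% Wilson intervals that cover the count of loci only. The red points fall from 47.0% within 250 bases to 15.3% between 5000 and 20000 bases, whereas the gray points stay between 11.5 and 16.2%, close to the dashed line at 13.1% for all 5hmC peaks.

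Several of the loci named above illustrate this neighborhood. At Gm16045, a 5hmC peak 105 bases from the locus had a log2 5hmC level of 1.80, 3.83, and 4.73 in PP, DP, and neurons, while 5mC was 5.13, 4.23, and 0.113. At Mgat5b, a 5hmC peak 138 bases away was at 3.09, 3.85, and 5.61, and at Syt3 one 559 bases away was at 2.43, 4.11, and 4.55. In these cases 5hmC was higher in the same cells in which the adjacent 5mC was lower. This was not so at a locus inside Auts2 (chr5:132029781-132029940), with 5mC of 4.94, 3.61, and 0.113. There the 5hmC peak 462 bases away was at 4.48, 4.93, and 3.13 and hence lower in neurons. Over all 250 loci with a 5hmC peak within 1000 bases, that peak was higher in neurons, by any amount, at 64.4%. This share was 47.8% at the remaining loci with a 5hmC peak within 1000 bases and 43.9% over all 5hmC peaks.

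Considering all 5hmC peaks of a gene, those higher in neurons were found at more of the genes nearest to a locus than of other genes. Of the 1565 genes, 1416 were nearest to a 5hmC peak, and 57.0% of these had at least 1 that was higher by 1 or more in neurons, compared with 28.0% of 8920 genes that had a 5mC peak able to qualify but no locus. Genes with more 5hmC peaks had more chances, but with 3 to 5 such peaks the shares were 50.4 and 33.7%, and with 6 or more 80.4 and 60.0%. With 1 or 2 5hmC peaks they were 17.7 and 13.2%.

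As to position, the loci resembled other 5mC peaks in most regards. Their median width was 143 bases, and by the deposited annotation 763 of them (40.3%) lay inside the nearest gene, 38.7% upstream, and 20.4% downstream, and 11 overlapped a gene start. Among the remaining loci without a 5hmC peak, 40.2% lay inside, 39.6% upstream, and 19.6% downstream. The loci were somewhat farther from gene starts, with a median distance of 25224 bases in place of 19712, and 13.8% in place of 10.7% were 100 kb away or more. By RefSeq, 1276 of the 1895 loci (67.3%) lay wholly within a protein-coding gene. The nearest gene of the table is not always the one that contains the peak.

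The loci were found near one another and near losses with a 5hmC peak more often than the remaining loci. Within 10000 bases, 6.23% of the loci had another such locus and 4.43% a loss that shared a 5hmC peak, in comparison with 4.17 and 2.43% of the remaining loci. Within 100000 bases these shares were 35.9 and 25.5% as against 28.5 and 17.8%.

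In total, the loci were nearest to 1565 symbols, 11.4% of the 13670 that had a peak able to qualify. A single locus was found at 1325 of these symbols, 2 at 183, 3 at 40, and 4 or more at 17. The small RNA names 7SK and U6 stand for many places in the genome and were left out of the genes with most loci, and all 67 symbols with more than 1 set of expression values were left out when expression was described.

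Bcl11b, which encodes the Ctip2 zinc finger protein of subcortical projection neurons, had 8 of the loci out of 19 peaks able to qualify. Of these, 7 lay inside the gene and 1 downstream, between 7.99 and 94.5 kb from its start, over 86.6 kb of chromosome 12. The 8 loci lost between 1.09 and 2.51 on the log2 scale. The largest loss, at chr12:107995021-107995198, went from 4.65 in PP and 4.33 in DP to 2.13 in neurons, and a locus next to it at chr12:107995545-107995674 from 4.03 and 3.88 to 2.68. A locus in the far end of the gene, at chr12:107927044-107927244, had more 5mC throughout, with 6.47, 6.37, and 5.10. Bcl11b expression was 1528, 6361, and 51072 in PP, DP, and neurons.

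Not all 5mC of Bcl11b was lost. The 9 peaks upstream of its start, of which 1 shared a 5hmC peak, differed between PP and neurons by 0.0333 to 0.505, and the 4 peaks downstream of the start that were no such loci by 0.443 to 0.672. The losses were thus on the downstream side of the start, as drawn in the map of peaks around Bcl11b. The nearest 5hmC peaks lay between 747 and 7055 bases from the loci. At 107933131, where the 5hmC peak was 747 bases away, 5hmC was at 3.86, 4.39, and 4.97 in PP, DP, and neurons, whereas the 5hmC peak nearest to the loci at 107926234 and 107927044 was at 6.49, 5.78, and 4.77 and hence lower in neurons.

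**Figure D4:**
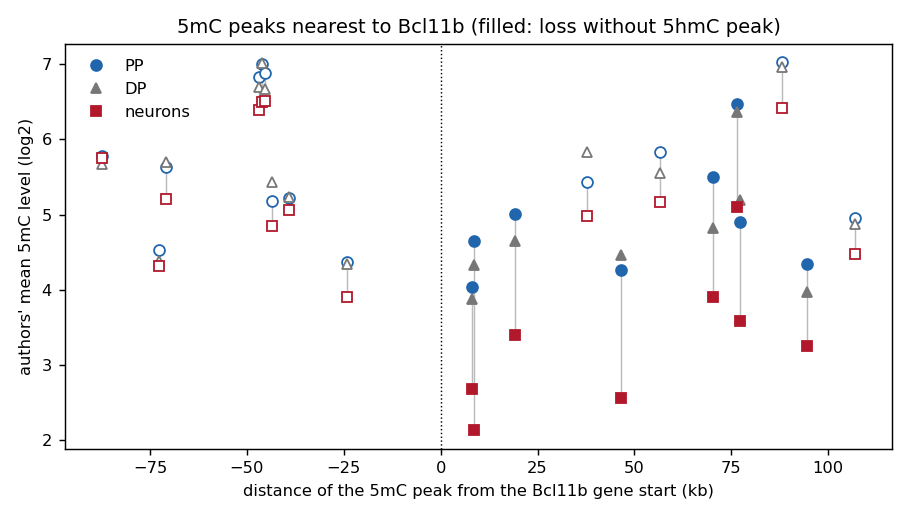
Log2 5mC level (authors' mean) in PP (circles), DP (triangles), and neurons (squares) of the 5mC peaks nearest to Bcl11b, by distance from the gene start in kb, with filled symbols for the 8 loci with 5mC loss and no 5hmC peak and open symbols for the others. All filled symbols lie on the right side of the start, between 7.99 and 94.5 kb, and their squares are 1.09 to 2.51 below their circles, whereas the open symbols on the left differ by at most 0.505.

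A second cluster of 8 loci was nearest to 4933415D12Rik but, according to RefSeq, lay inside Sox5 (chr6:143828425-144782287), which encodes a transcription factor of deep-layer projection neurons. The gene was named for this reason after its values were seen. Within Sox5, 8 of 24 peaks able to qualify were such loci, and 3 of 6 peaks with a 5hmC peak were losses of the same size. The 8 loci had a median level of 4.68, 4.68, and 3.52 in PP, DP, and neurons, so that the median was the same in PP and DP. Their largest loss, at chr6:144076110-144076287, went from 4.11 and 4.28 to 2.00. Sox5 expression was 3543, 5978, and 41786, while that of 4933415D12Rik was 17.3, 19.9, and 64.8.

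Cntn2, which encodes the axonal adhesion molecule TAG-1, had 5 loci out of 12 peaks able to qualify, and its expression was 1146, 9931, and 226628 in PP, DP, and neurons. Inside Cntn2, a locus at chr1:132535469-132535592 had a level of 5.00, 5.15, and 2.85. The other 4 lay upstream, within the adjacent gene Nfasc, and those at chr1:132569731-132569850 and chr1:132591533-132591703 had 4.42 and 4.33 in PP, 4.07 and 4.35 in DP, and the lowest listed level in neurons. Nfasc, which encodes neurofascin of the axon initial segment, contained 6 of the loci, and its own expression was 3123, 10274, and 58755.

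Tiam2, which encodes an activator of Rac1, had 5 loci out of 10, with losses from 1.32 to 4.38. Of these loci, 1 lay inside the gene and 4 upstream of it. The largest, at chr17:3254032-3254161, was at 6.03, 5.37, and 1.65 in PP, DP, and neurons, and expression was 665, 6081, and 41126. Of its peaks that did share a 5hmC peak, 2 of 3 were losses as well. Prkce had 4 loci out of 17, all inside the gene, and expression of 714, 1110, and 10415. Cxcr7, which encodes an atypical receptor of the chemokine Cxcl12 in migrating neurons, had 4 out of 10 with losses from 1.88 to 3.65 and expression of 282, 510, and 4115. A 5hmC peak 24 bases from one of its loci, 74.2 kb downstream of the start, was at 2.86, 3.79, and 5.01. For the Cxcr7 locus inside the gene, the nearest 5hmC peak lay 15189 bases away. That peak was at 5.07, 4.21, and 2.58 and hence lower in neurons. The 5hmC peaks nearest to the remaining Cxcr7 loci were higher in neurons by 0.326 and 3.26. In each of Cntn2, Tiam2, Prkce, and Cxcr7, as in Bcl11b, expression was highest in neurons.

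Genes of dividing progenitors were among those with most loci too, and their loci lay far from the gene start. So did some loci of the genes above, at up to 92.4 kb for Tiam2, 157 kb for Prkce, and 187 kb for Cxcr7. The 4 loci nearest to Mki67, a gene of dividing cells, lay from 118 to 344 kb upstream, and the largest loss was from 4.62 in PP and 3.95 in DP to 2.02 in neurons, while expression was 46482, 52107, and 1585. The 4 loci nearest to Sox2, a gene of neural stem cells, lay from 41.0 to 309 kb downstream, and the largest was from 4.20 and 3.95 to 1.1, while expression was 16755, 10576, and 1652. None of these 8 loci lay in a protein-coding gene, and for both genes expression was lowest in neurons. Gpr151, with 4 of 8, and the predicted gene Gm5083, with 4 of 19, were hardly expressed, with values of at most 12.4 and 17.5. In all, 12 symbols had 4 loci, and those described are the ones with the largest summed loss. The log2 expression difference of the others with a single set of values was 3.22 for Srgap1, 2.55 for Fam129b, 0.159 for Gm13389, 0.0619 for Nfatc2, and -1.47 for Ttc30a1.

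Next, expression of the nearest genes was described as the log2 ratio of neurons to PP after adding 10 to each value, with a 2-fold difference or more as higher or lower. Of 1545 genes with a single set of values, 445 (28.8%) were higher in neurons and 252 (16.3%) lower, as compared with 18% and 17.3% of all 14294 genes of the table. Among the 12059 genes with a peak able to qualify but no locus, 16.7% were higher and 17.6% lower. The share of higher genes was above that of genes without a locus on each of the 19 autosomes, running from 18.7 to 40.0% for genes with a locus and from 12.7 to 20.4% for those without. From PP to DP, 11.5% of the genes were higher and 4.66% lower, against 5.67 and 4.20% of all genes, and from DP to neurons 21.6% were higher and 13.4% lower, against 14.0 and 13.1%. Genes that were higher in later cells were thus more frequent near the loci, and genes that were lower were about as frequent as elsewhere.

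The share of genes higher in neurons was larger with more loci. It was 26.5% for genes with 1 locus, 35.8% with 2, and 61.1% with 3 or more, the last being 33 of 54 genes. It was also larger with the size of the largest loss, from 25.9% below 1.5 to 29.8% between 1.5 and 2 and 38.3% at 2 or more. Genes with more peaks had more chances to hold a locus, and among genes with 11 or more peaks able to qualify the share was 37.8% with and 23.4% without a locus, whereas with 1 or 2 such peaks it was 20.2 and 15.7%. The lower share ranged between 7.41% and 17.1% over these groups by number and size, as displayed in the plot of expression change.

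**Figure D5:**
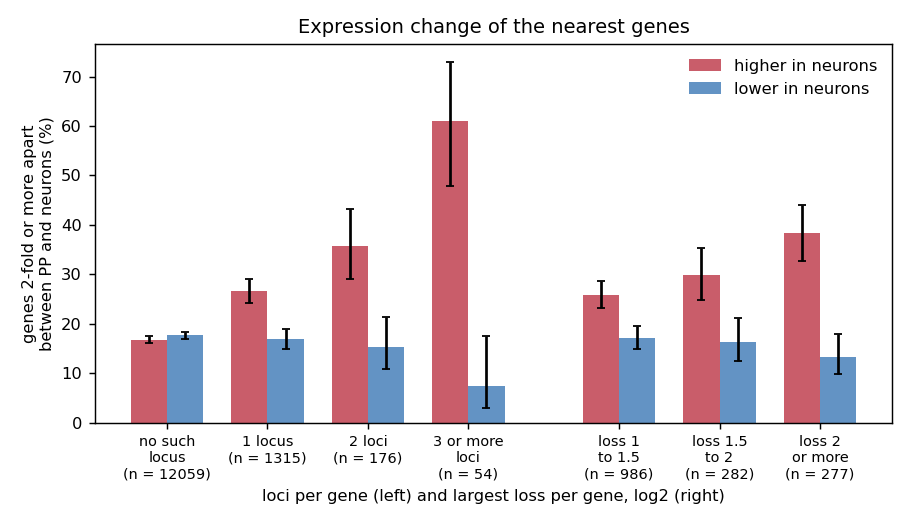
Percentage of genes whose expression was at least 2-fold higher (red) or lower (blue) in neurons than in PP, for genes with no such locus and with 1, 2, and 3 or more loci (left) and by the largest 5mC loss among the loci of a gene (right), with 95% Wilson intervals that cover the count of genes only and the number of genes under each pair. The red bars grow from 16.7% to 61.1% with the number of loci and from 25.9% to 38.3% with the loss, whereas the blue bars range from 7.41% to 17.6%.

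This share also differed with the position of the locus. Of 675 genes with a locus inside, 37.3% were higher in neurons and 15.9% lower, in comparison with 18.9 and 19.0% of 6864 genes with a peak able to qualify inside but no locus. With a locus upstream the share was 27.2% and downstream 21.7%, against 16.7% of genes with a peak able to qualify in any position but no locus. Genes with only other peaks upstream or downstream were not counted apart. Of 210 genes with a locus 100 kb or more from their start, 39.5% were higher, and of 1028 with only other peaks at such a distance 25.7%. For the 267 genes that had both a locus and a loss with a shared 5hmC peak, 42.3% were higher and 13.9% lower, whereas for the 1278 genes that had a locus but no such loss the shares were 26.0 and 16.8%. They were 25.8 and 17.6% for the 635 genes that had the loss with a 5hmC peak but no locus, and hence close to those of genes with a locus alone.

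The genes with the largest difference in expression were of neurons on one side and of progenitors on the other. Among the former, Cntn2 was followed by Kcna1, a potassium channel gene, with expression of 19.6, 84.5, and 5622 in PP, DP, and neurons and a 5mC level of 4.09, 3.84, and 3.08 at a locus 21.2 kb downstream of its start. Trim67, with 104, 468, and 20364, had a locus 8.17 kb upstream with 5.15, 4.43, and 2.6. Cdh13, which encodes a cadherin, with 57.4, 164, and 11418, and Camk2b, which encodes a subunit of calcium/calmodulin-dependent kinase, with 40.0, 156, and 8068, had loci inside the gene at 4.67, 4.45, and 1.85 and at 4.49, 3.40, and 1.97. The genes were picked for their expression and the loci for their 5mC, so that both directions are given by the choice.

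On the other side, Gas1, a gene of Hedgehog signaling, had expression of 13228, 6113, and 104 and a locus 60.9 kb downstream of its start with 4.15, 3.56, and 3.10. Hmga2, which encodes a chromatin protein of young progenitors, was at 2898, 775, and 15.2 with a locus 33.6 kb upstream at 6.10, 5.97, and 4.89. Chst3, a sulfotransferase gene, was at 3936, 1793, and 25.2 with a locus at 4.16, 4.07, and 2.84, and Hhipl1 at 1201, 442, and 7.20 with one at 4.24, 3.44, and 2.74. Aldh1l1, an enzyme gene of the glial lineage, was at 1680, 219, and 6.40 with a locus at 4.77, 4.26, and 3.71. Here too both directions are given by the choice of genes and loci.

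The loci were then described over 10 lists of genes, each beside the 4.14% of peaks that qualified over all genes, and the expression of the genes with a locus beside that of all genes of the list with a single set of values. Shares without the gene that held most loci of a list were added after the data were seen. Projection neuron identity factors had 24 loci among 141 peaks able to qualify (17.0%), in 10 of 21 genes, and 8 of the 9 of these genes with a single set of expression values were 2-fold higher in neurons and 0 lower, as were 16 and 1 of 23 genes of the list. Without Bcl11b, 16 of 122 peaks (13.1%) were such loci, and there were 3 each near Ldb2, Rbfox1, and Auts2 and 2 near Cux2. Mef2c, a transcription factor gene of maturing neurons, had a locus inside with 4.33, 4.00, and 0.840 in PP, DP, and neurons and expression of 222, 174, and 7435. bHLH and T-box neurogenic factors had 9 loci among 64 peaks (14.1%), in 6 of 18 genes, of which 3 were higher and 1 lower, with 10 and 7 of 21 over the list, and 10.3% without Tcf4. Among these was Id2, an inhibitor of bHLH factors, with a locus 248 kb upstream at 5.92, 5.12, and 3.06. Insm1, a zinc finger gene of basal progenitors, had one 47.6 kb upstream, within Cfap61 by RefSeq, at 5.11, 4.33, and 2.51. Tbr1, a gene of deep-layer neurons, had a locus with a loss of 2.14.

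Lists of neuronal shape and wiring are described next. With all genes kept, the synapse and ion channel lists among them had lower shares than the progenitor and cell cycle lists below. Cytoskeleton and motor genes had 17 loci among 178 peaks (9.55%), nearest to 6 of 30 genes, with 5 for Tiam2, 4 for Srgap1, and 3 for Ank3. Of these 6 genes, 5 were higher in neurons and 0 lower, as were 26 and 0 of 33 over the list. Without Tiam2 the share was 7.14%. Srgap1, which encodes a regulator of the leading process, had its largest loss at a locus with 4.77, 4.64, and 2.44 and expression of 1355, 1348, and 12707. Axon guidance and adhesion genes had 22 loci among 233 peaks (9.44%), in 15 of 48 genes, and 9 of 14 with expression values were higher and 0 lower, with 27 and 6 of 48 over the list. Without Cntn2 the share was 7.69%. Efnb2, which encodes ephrin B2, had a locus inside with 4.11, 4.39, and 0.943 and expression of 23359, 17377, and 35492, and a 5hmC peak 337 bases away was at 5.32, 5.58, and 6.51. Synapse and vesicle genes had 7 loci among 107 peaks (6.54%), in 6 of 34 genes, all 6 of which were higher in neurons, as were 31 of 35 over the list. Without Syt3 the share was 4.76%. Syt1, the calcium sensor of fast release, had a locus at 6.39, 5.80, and 4.62 and expression of 69.6, 142, and 6547. Ion channels and transmitter receptors had 12 loci among 215 peaks (5.58%), in 12 of 50 genes, of which 11 were higher and 0 lower, as were 45 and 0 of 52 over the list. Of these, Gabbr2, a GABA-B receptor gene, had a locus at 4.28, 2.72, and 0.113 and expression of 2.10, 12.4, and 1185, and Cacna1c, a calcium channel gene, had a locus at 5.41, 5.30, and 1.64.

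The lists that stand for progenitors held such loci as well. Progenitor genes had 8 loci among 87 peaks (9.20%), in 5 of 22 genes, with 0 higher and 3 lower in neurons, as compared with 1 and 19 of 22 over the list. Cell cycle and replication genes had 8 among 97 (8.25%), in 5 of 31 genes, with 0 higher and 4 lower, as compared with 2 and 26 of 31. Without Sox2 the share of progenitor genes was 4 of 70 (5.71%), and without Mki67 that of cell cycle genes was 4 of 79 (5.06%). In addition to the loci of Sox2 and Mki67, one lay 4.84 kb upstream of Btg2, the antiproliferative gene whose reporter defined DP, at 4.97, 4.37, and 2.96, and one 20.4 kb upstream of Cenpe, a kinetochore motor gene, at 5.13, 4.55, and 3.79. Btg2 expression was 19335, 38556, and 7484 and that of Cenpe 6489, 8906, and 403.

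Wnt pathway genes had 11 loci among 196 peaks (5.61%), in 10 of 39 genes, of which 3 were higher and 2 lower in neurons, with 10 and 16 of 41 over the list. A locus inside Wif1, which encodes a secreted Wnt inhibitor, had 4.38, 3.51, and 1.80 and expression of 9.40, 95.3, and 8.0, and one inside Nkd1, an intracellular inhibitor, had 4.55, 4.44, and 2.66 and 521, 2373, and 2194. Enzymes and readers of cytosine methylation and oxidation had 2 loci among 32 peaks (6.25%), both nearest to Mbd2 among 14 genes, of which the farther one lay 762 kb downstream of its start. By RefSeq, that locus lay within Dcc, a gene of the axon guidance list. Mbd2, a reader of methylated DNA, was expressed at 857, 719, and 917. None of the loci overlapped the 10 bisulfite amplicons or the 5 guide targets of the study that were compared. The study lists more amplicons than the 10 compared, among them some at predicted off-target regions.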

How the data were processed

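Tables of 5mC (MeDIP) and 5hmC (hMeDIP) peaks of PP, DP, and neurons were used as deposited. Per the paper and the submitters' processing notes, alignment to mm10 was with BWA 0.7.8-r455 and peak calling with SICER 1.1, and the authors kept peaks found in all replicates of a cell type, left out those at repeats, and normalized with DiffBind (TMM). The deposited level columns hold log2 of the mean level per cell type. The deposited expression columns hold a score per cell type from earlier RNA-seq of the authors on a scale without a name, and the deposited distances are in bases from the gene start as the authors annotated it. The deposited fold changes and p-values hold the comparisons of the authors and were not used.

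All 55085 and 47478 rows entered, with coordinates taken as 1-based with both ends included. Overlap meant 1 shared base or more. The tables hold no read counts, so that no interval could rest on depth, and no test was run on the means. Intervals (95%, Wilson) cover counting of loci or genes only. For expression, 10 was added before log2. Peak steps were tested on simulated intervals. Gene bodies and promoter windows came from RefSeq (GRCm38.p6). Python 3.11.15, pandas 2.3.3, numpy 2.4.6, scipy 1.17.1, and matplotlib 3.10.9 were used.

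The loci, lists, and rules were chosen with earlier results of these data known. Named were the 10 loci with the largest loss, the 10 genes with most loci (ties by larger summed loss), the 5 loci with the largest step to DP and the 5 with the largest step thereafter, the 5 genes with the largest difference in expression in each direction (value of 50 or more in a cell type), the 2 genes with the largest loss in each of the 10 lists, loci at amplicons or guide targets of the study, and 3 loci on either side of the threshold. Other genes were named after their values were seen. Alternatives changed the PP level, the loss, the scaling, the distance to 5hmC, and the gene filters.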

Additional observations from a re-analysis of the deposited data

How the results depend on the processing

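Of 94 values recomputed for 9 results under 14 alternatives, 65 stayed within the 95% interval of the reported value (counts within 1.5 times) and 29 moved. Loss was more frequent with a 5hmC peak than without one in the 8 alternatives that recomputed it, and genes near the loci were more often higher in neurons than genes with other peaks in the 13 that recomputed this, by 7.44 to 20.6 percentage points. The interval counts loci and genes, which are not replicates.

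With a level of 5 or more in PP, there were 606 loci, shares of loss of 2.43% without and 14.4% with a 5hmC peak, and a 5hmC peak within 1000 bases at 15.0%. With a loss of 0.58 or more, these were 6684, 14.6, 32.6, and 11.7%, with a DP share of 26.8%, a nearby 5hmC difference of 0.224, and 23.1% of genes higher. With a loss of 2 or more, there were 305 loci, shares of 0.666 and 5.04%, a DP share of 21.5%, a 5hmC difference of 1.02, and 38.3% of genes higher and 13.4% lower. These thresholds change which peaks are counted. After the median difference was subtracted, there were 1248 loci, shares of 2.73 and 13.3%, and a DP share of 24.5%. Requiring no 5hmC peak within 250 bases left 10.1% with one within 1000 bases. Counting 5hmC peaks within 5000 bases gave 43.9% and a 5hmC difference of 0.232. For expression, adding 1 in place of 10 gave 32.2% higher and 20.2% lower, genes with a value of 50 or more 35.1% higher, and loci inside or within 5000 bases of the start 34.6% higher.

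CG content and E-boxes over whole peaks were not run, because no genome sequence was used here. No sample was left out and no paired analysis was possible because the tables hold means only. The tables give no depth, and losses that rest on the lowest listed neuron level have no exact size.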
